A study of Homo sapiens with 15 samples.

Results

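The Hedgehog pathway was followed through 9 of its genes, GLI1, GLI2, GLI3, PTCH1, SMO, HHIP, BOC, CDON and GAS1, out of 25681 gene symbols counted by RNA-seq in HSSYII cells. HSSYII is a human synovial sarcoma line that carries the SS18-SSX1 fusion, so all groups share that fusion and the results come from a single line. The genes were taken by symbol alone, and where a symbol had several transcript rows the row with the highest total count was used. All 9 were present in the tables, and how many passed the filter on low counts is given with each comparison. There were 5 groups of 3 libraries. The dBRD9-A group received 100 nM of a degrader of BRD9, a bromodomain subunit of BAF complexes, for 6 hr, and the DMSO group received vehicle for the same time. The shSS18-SSX1-1 and shSS18-SSX1-2 groups carried lentiviral hairpins against the fusion for 96 hr, without drug selection, and the shRenilla group carried a control hairpin. Whether the 3 libraries of a group were separate cultures is not in the labels, and the p-values cover only variation among the libraries, some or all of it possibly technical.

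Hedgehog signalling begins when a secreted ligand (SHH, IHH or DHH) binds Patched, the product of PTCH1. Unbound Patched holds Smoothened, the product of SMO, inactive. Once released, Smoothened acts at the primary cilium and shifts the GLI transcription factors towards their activating forms. GLI1 and GLI2 act mainly as activators and GLI3 mainly as a repressor, while CDON, BOC and GAS1 are co-receptors that present ligand. GLI1, PTCH1 and HHIP are themselves direct targets in many tissues, and the last of these encodes a membrane protein that traps ligand, so PTCH1 and HHIP work as negative feedback. CDON, BOC and GAS1 are reduced by Hedgehog signalling in vertebrate embryos.

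Total counts per library were 18580419 to 27031647, and all levels are normalised read counts in CPM, scaled by TMM over the 15 libraries. The shRenilla replicate 1 library stood apart from its group, with a chi-square per degree of freedom of 34.6 and 25.6 against the other shRenilla libraries, whereas no other pair within a group exceeded 9.32. SSX1, whose reads from the fusion and from the intact gene were not separated, was at 20.9, 20.7 and 18.7 CPM with shSS18-SSX1-1, at 29.0, 29.2 and 27.8 CPM with shSS18-SSX1-2, and at 77.0, 58.5 and 55.1 CPM with shRenilla. SS18 averaged 111 CPM and 124 CPM with the first and second hairpin and 171 CPM with shRenilla. Both fusion partners were thus lower in every hairpin library than in every shRenilla library. In bulk libraries, fewer cells of a kind and less RNA per cell cannot be told apart.

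Levels were compared between genes only per kb of the canonical transcript, whose length can differ from that of the transcript row counted. Such a difference would shift a gene by the same factor in every library. GLI1 stood first in the dBRD9-A libraries, at 23.0 to 23.7 CPM per kb, followed by PTCH1 at 16.7 to 17.1 CPM per kb. GAS1 (11.7 to 13.1 CPM per kb), HHIP (11.6 to 11.9) and SMO (11.1 to 11.8) formed a middle tier whose neighbours overlapped. GLI2 (9.42 to 9.88 CPM per kb), GLI3 (6.03 to 6.50) and CDON (2.86 to 2.91) followed without overlap, and BOC came last at 0.0175 to 0.0460 CPM per kb. In the DMSO libraries GLI1 (24.8 to 26.4 CPM per kb) and PTCH1 (17.3 to 18.4) again led, and GAS1, SMO and HHIP overlapped between 12.3 and 14.7 CPM per kb. GLI1 and PTCH1 overlapped in the hairpin libraries. PTCH1 averaged 31.2 CPM per kb with shSS18-SSX1-1 and 26.3 with shSS18-SSX1-2, and GLI1 averaged 27.7 and 28.4 in the same groups. With shRenilla, GLI1 (28.9 to 33.7 CPM per kb) was clear of PTCH1 (14.3 to 15.9).

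**Figure D1:**
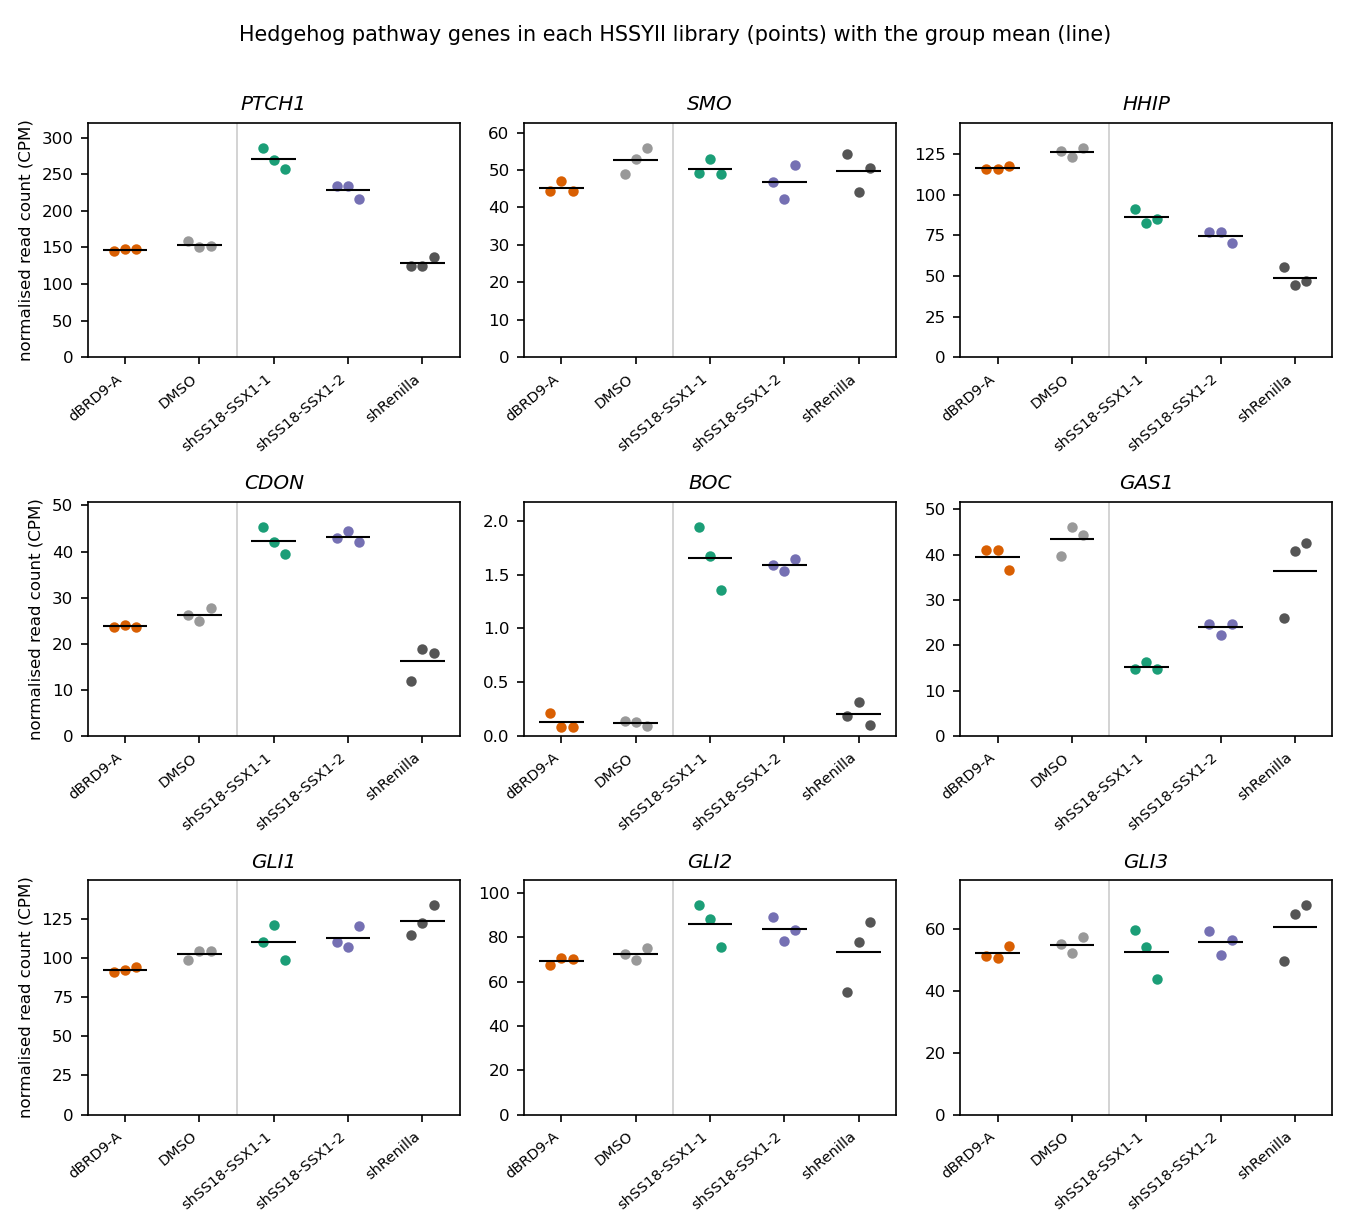
Normalised read count (CPM, vertical axis from 0) of each Hedgehog pathway gene in each library (points), with the mean of each group of 3 (line); the grey line separates the 6 hr and the 96 hr experiment. PTCH1, HHIP, CDON and BOC are higher in all 6 hairpin libraries than in the shRenilla libraries. GAS1 is lower there, and GLI1, GLI2, GLI3 and SMO overlap between these groups.

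dBRD9-A was compared with DMSO to ask how 6 hr of treatment with the BRD9 degrader changed transcription. GLI1, SMO and HHIP fell slightly, to between 0.867-fold and 0.926-fold of DMSO, and no member rose. The count table tested 13652 genes in this comparison, of which 35.9% passed an adjusted p of 0.05 in edgeR's quasi-likelihood test (18.2% lower, 17.7% higher). Of the 9 members, 8 were tested and 3 were lower, and none was past a 1.5-fold change, which 2.83% of all genes were. The median log2 fold change was -0.12 over the 8 tested members and 0.01 over all genes tested. Other markers moved in the same contrast. The 6 smooth muscle markers summed to 192 to 198 CPM with dBRD9-A and 154 to 163 CPM with DMSO, and 2 of the 4 tested were higher. Most of these reads were of MYL9, while ACTA2 and DES held at most 2 counts in any of these libraries. COL1A1 averaged 6.67 CPM with dBRD9-A and 4.13 CPM with DMSO. The 8 fibroblast and matrix markers together summed to 56.9 to 61.7 and 62.6 to 65.2 CPM in these groups. Their part in the Hedgehog values was not tested.

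SMO, which encodes the signal transducer, was at 44.3, 47.0 and 44.4 CPM with dBRD9-A, against 48.8, 52.9 and 55.9 CPM with DMSO. The lowest DMSO library lay above the highest dBRD9-A library. The log2 fold change was -0.21 (SE 0.0494, edgeR adjusted p = 0.00138). Groups without overlap were found for 5 members, GLI1, PTCH1, SMO, HHIP and CDON, and for 45.8% of all genes tested. GLI1, the transcriptional activator and standard reporter of the pathway, was at 91.4, 92.4 and 94.0 CPM with dBRD9-A and at 98.6, 105 and 104 CPM with DMSO. The groups did not overlap, and the log2 fold change was -0.14 (SE 0.0382, edgeR adjusted p = 0.0042). HHIP was at 116, 116 and 118 CPM with dBRD9-A and at 127, 123 and 129 CPM with DMSO, again without overlap, with a log2 fold change of -0.11 (SE 0.0351, edgeR adjusted p = 0.0132). Its call was lost without dBRD9-A replicate 1 (edgeR adjusted p = 0.059) and without dBRD9-A replicate 2 (0.0659). All 3 calls were lost when the 15 libraries were fitted together, where the spread is shared with the more variable hairpin libraries (edgeR adjusted p = 0.241 for GLI1, 0.114 for SMO and 0.329 for HHIP).

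The other 5 tested members had log2 fold changes between -0.06 and -0.13 and did not pass. PTCH1 was at 144, 148 and 148 CPM with dBRD9-A and at 159, 150 and 152 CPM with DMSO, 2 sets that lay close together without overlapping (log2 fold change -0.06, SE 0.034, edgeR adjusted p = 0.169). CDON had a log2 fold change of -0.13 (edgeR adjusted p = 0.0725) and GAS1 one of -0.13 (0.0731). Small changes of processing altered these calls. GAS1 passed without the filter on low counts (edgeR adjusted p = 0.0382), which gave 4 members. Without DMSO replicate 2, PTCH1 (edgeR adjusted p = 0.0489) and CDON (0.0222) passed and 5 members were lower, and without DMSO replicate 1 GAS1 passed (0.0042). GLI2 and GLI3 overlapped between the groups, with log2 fold changes of -0.06 (SE 0.0411) and -0.07 (SE 0.0461). BOC was too low to be tested, with 5, 2 and 2 counts with dBRD9-A and 3, 3 and 2 counts with DMSO, a ratio of 1.04 (exact 95% interval 0.357 to 3.10, counting error only). A change in BOC within that range was not detectable at this depth.

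The hairpins were compared with shRenilla to ask which transcripts depend on the fusion. Here 5 members changed. PTCH1, HHIP, CDON and BOC rose with both hairpins and GAS1 fell with both, while GLI1, GLI2, GLI3 and SMO did not pass the test. For the mean of both hairpins, 14269 genes were tested and 44.6% were called (22.5% higher, 22.1% lower), and 18.4% were also past 1.5-fold (12.5% higher, 5.9% lower). Of the 9 members, all tested, 4 were higher and 1 lower, and all 5 were past 1.5-fold. BOC is among them but passed the filter on low counts only through the hairpin groups, where it is high, and without it 3 of 8 were higher. The median log2 fold change was 0.20 over the 9 members, BOC included, and -0.01 over all genes tested. That member median is the value of GLI2, which did not pass. Among single hairpins the same count of 4 higher and 1 lower was found with shSS18-SSX1-1 (41.5% of all genes called, 22% higher and 19.5% lower) and with shSS18-SSX1-2 (34.2% called, 18.3% higher and 15.9% lower), and both use the same 3 shRenilla libraries. BOC is again among the 4 with each hairpin, and without it 3 of 8 were higher.

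**Figure D2:**
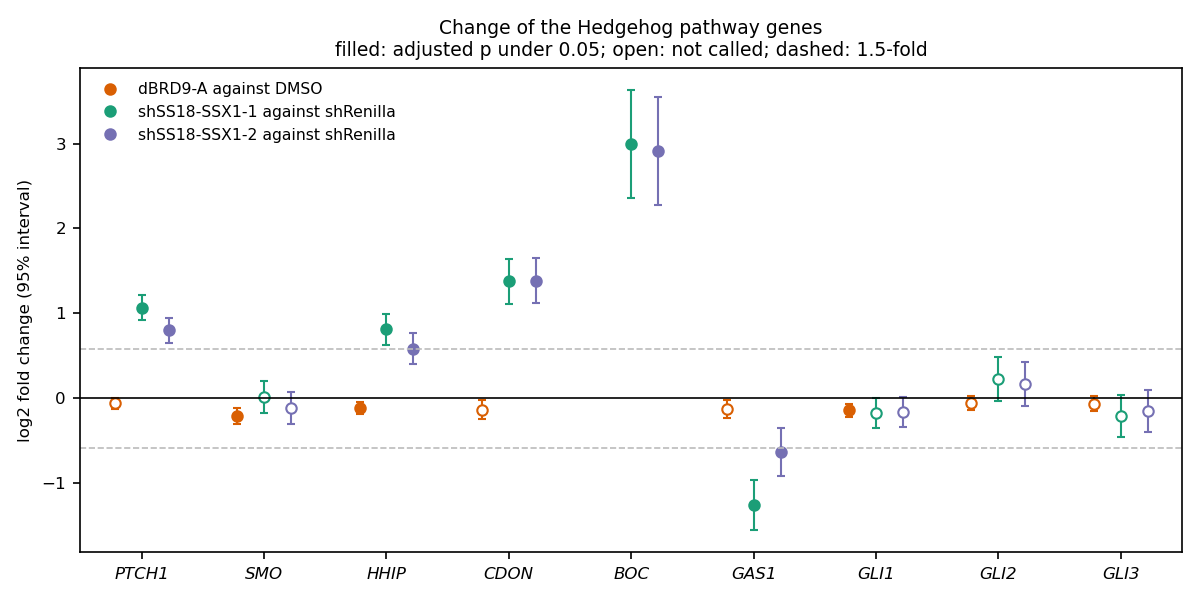
Log2 fold change of each Hedgehog pathway gene (points) with its 95% interval (bars) for dBRD9-A against DMSO and for each hairpin against shRenilla, from edgeR; filled points have an adjusted p under 0.05, dashed lines mark 1.5-fold, and BOC has no dBRD9-A value because it was not tested. The dBRD9-A values lie between -0.21 and -0.06, while PTCH1, HHIP, CDON and BOC lie above 0 and GAS1 below 0 with both hairpins.

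PTCH1, the receptor gene (GRCh37 chr9:98205262-98279339, minus strand), was at 286, 269 and 257 CPM with shSS18-SSX1-1, at 233, 234 and 217 CPM with shSS18-SSX1-2, and at 124, 125 and 137 CPM with shRenilla. Every hairpin library was above every shRenilla library. The log2 fold changes were 1.07 (SE 0.0747, edgeR adjusted p = 7.89e-08) with the first hairpin and 0.80 (SE 0.0745, edgeR adjusted p = 1.43e-06) with the second, and 0.93 (SE 0.0668, edgeR adjusted p = 7.48e-08) for their mean. HHIP, the ligand trap (chr4:145567308-145666423, plus strand), was at 91.2, 82.9 and 85.1 CPM with shSS18-SSX1-1, at 77.3, 76.9 and 70.5 CPM with shSS18-SSX1-2 and at 55.4, 44.6 and 46.9 CPM with shRenilla. These groups did not overlap either. The log2 fold change was 0.81 (SE 0.0928, edgeR adjusted p = 9.30e-06) with the first hairpin and 0.58 (SE 0.0928, edgeR adjusted p = 0.000221) with the second, which was just under the 1.5-fold line. With each hairpin, 5 members, PTCH1, HHIP, BOC, CDON and GAS1, did not overlap with shRenilla. BOC is among the tested genes only through its hairpin counts. Over all genes tested, 48.3% did not overlap with shSS18-SSX1-1 and 44.3% with shSS18-SSX1-2.

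Among the members searched, PTCH1 is the one whose promoters held a match to the GLI binding consensus TGGGTGGTC (searched on both strands, the other strand being GACCACCCA), and its sequence is shown for that reason. RefSeq promoters of 300 bases (250 before and 50 after a start site, table build GRCh38.p14) were found for 7 members, 15 promoters in all, and matched letter for letter to GRCh37, while GLI1 and GLI3 were not searched. The consensus was present in 1 of the 15, and in 83 of all 35116 promoters in the table (0.236%). The 250 bases before that start site, in GRCh37 at chr9:98271549-98271798 on the minus strand, are written 5′ to 3′ with the consensus in capitals, whose first base lies 172 bases before the start.
PTCH1: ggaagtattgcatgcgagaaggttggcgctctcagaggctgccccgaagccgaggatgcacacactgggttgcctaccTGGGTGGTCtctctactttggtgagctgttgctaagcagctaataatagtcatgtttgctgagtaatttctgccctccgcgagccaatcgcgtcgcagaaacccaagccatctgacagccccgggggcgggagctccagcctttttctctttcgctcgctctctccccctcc
The match is a description of the letters and not of binding. PTCH1 has 5 such promoters in the table, and its 7 transcript rows held nearly the same reads (totals of 61798 to 62478), so the counts do not say which start site was used. The HHIP promoter, at chr4:145567058-145567357 in GRCh37, held no match to these 9 letters.

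SMO gave a yardstick for PTCH1 that does not depend on scaling between libraries. The ratio of PTCH1 to SMO, both per kb, was 2.33 to 2.66 with shSS18-SSX1-1, 1.93 to 2.53 with shSS18-SSX1-2 and 1.05 to 1.30 with shRenilla, without overlap. In the 6 hr experiment the ratio overlapped between dBRD9-A and DMSO. SMO itself was at 49.2, 52.9 and 49.0 CPM with shSS18-SSX1-1, at 46.8, 42.4 and 51.4 CPM with shSS18-SSX1-2 and at 54.2, 44.1 and 50.6 CPM with shRenilla, which overlapped (log2 fold change of the mean of both hairpins -0.05, 95% interval -0.21 to 0.12, edgeR adjusted p = 0.673).

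The 3 co-receptor genes moved in different directions in the hairpin libraries. CDON (chr11:125825691-125933230, minus strand) was at 45.4, 42.0 and 39.5 CPM with shSS18-SSX1-1, at 42.9, 44.4 and 42.0 CPM with shSS18-SSX1-2, and at 12.0, 18.9 and 18.1 CPM with shRenilla. All 6 hairpin libraries were above every shRenilla library, and the log2 fold change was 1.38 with each hairpin and for their mean (SE 0.122, edgeR adjusted p = 6.48e-07). BOC (chr3:112929850-113006306, plus strand), almost silent in the other groups, had 43, 31 and 33 counts with shSS18-SSX1-1, 35, 39 and 32 counts with shSS18-SSX1-2, and 5, 7 and 2 counts with shRenilla. The summed counts gave ratios of 8.18 (exact 95% interval 4.67 to 15.5) and 7.86 (4.49 to 14.9), counting error only, and the fitted log2 fold change of the mean was 2.96 (SE 0.296, edgeR adjusted p = 2.10e-06), a test it entered only because of its hairpin counts. Even so BOC reached only 1.35 to 1.95 CPM in the hairpin libraries.

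GAS1 (chr9:89559277-89562421, minus strand, a single exon) went the other way. It was at 14.7, 16.2 and 14.9 CPM with shSS18-SSX1-1, at 24.8, 22.2 and 24.8 CPM with shSS18-SSX1-2, and at 26.0, 40.8 and 42.6 CPM with shRenilla. The lowest shRenilla library, replicate 1, lay just above the highest shSS18-SSX1-2 library. The log2 fold change was -1.26 (SE 0.151, edgeR adjusted p = 1.44e-05) with shSS18-SSX1-1, -0.63 (SE 0.146, edgeR adjusted p = 0.00422) with shSS18-SSX1-2 and -0.95 (SE 0.124, edgeR adjusted p = 2.95e-05) for their mean. Per kb, CDON made up 48.0% to 51.9% of the 3 co-receptor transcripts with shSS18-SSX1-1, 38.1% to 42.1% with shSS18-SSX1-2 and 13.9% to 14.9% with shRenilla. GAS1 made up 44.1% to 48.6% and 55.3% to 59.2% in the 2 hairpin groups and 84.6% to 86.0% with shRenilla. In the 6 hr experiment the GAS1 share was 80.2% to 81.8% with dBRD9-A and 79.9% to 82.9% with DMSO.

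**Figure D3:**
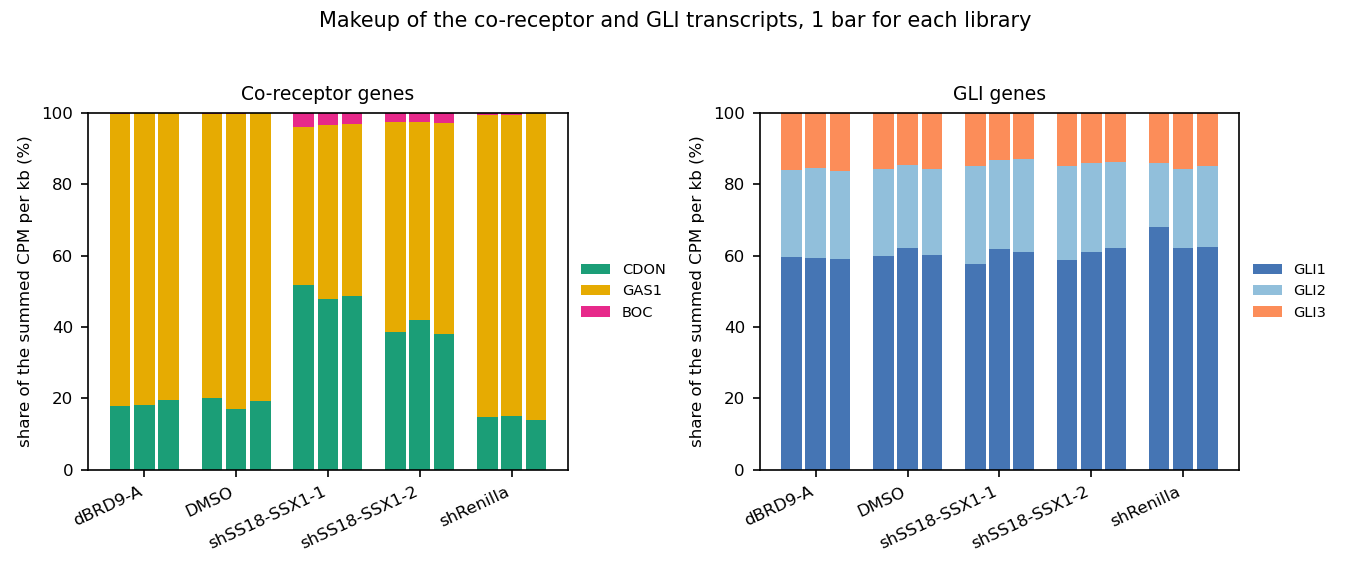
Share (%) of each co-receptor gene (left) and of each GLI gene (right) in the summed CPM per kb of its family, with 1 stacked bar for each library. GAS1 makes up 44.1% to 59.2% of the co-receptor bars in the 6 hairpin libraries and 84.6% to 86.0% with shRenilla, while GLI1 makes up 57.7% to 67.9% of the GLI bars in all 15 libraries.

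GLI1 was at 110, 121 and 98.6 CPM with shSS18-SSX1-1, at 110, 107 and 121 CPM with shSS18-SSX1-2 and at 115, 122 and 134 CPM with shRenilla. The 3 groups overlapped. The log2 fold change of the mean was -0.17 (95% interval -0.32 to -0.01, edgeR adjusted p = 0.0966), and a rise of the size of PTCH1 or HHIP lies outside that interval. GLI2 was at 75.6 to 94.4 CPM with shSS18-SSX1-1, at 78.5 to 89.1 CPM with shSS18-SSX1-2 and at 55.3 to 86.7 CPM with shRenilla (log2 fold change 0.20, SE 0.117, edgeR adjusted p = 0.188). GLI3 was at 43.9 to 59.8, 51.6 to 59.2 and 49.8 to 67.7 CPM in the same groups (log2 fold change -0.18, SE 0.108, edgeR adjusted p = 0.196). Neither result was stable to the shRenilla libraries. GLI3 was lower without shRenilla replicate 1 (-0.29, edgeR adjusted p = 0.0293) and GLI2 higher without shRenilla replicate 3 (0.35, edgeR adjusted p = 0.0405).

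Without shRenilla replicate 1, the library that stood apart, all 5 changed members were still called, with log2 fold changes of 0.93 for PTCH1, 0.82 for HHIP, 2.92 for BOC, 1.21 for CDON and -1.12 for GAS1, and 6 members were called in all. Markers of other cell types moved with the same contrast. The 8 fibroblast and matrix markers summed to 682 to 706 CPM with shSS18-SSX1-1, 876 to 917 CPM with shSS18-SSX1-2 and 37.3 to 51.9 CPM with shRenilla, but COL1A2, DCN, LUM and FAP stayed under 1 CPM in every hairpin group. The 6 smooth muscle markers summed to 1139 to 1200, 1132 to 1277 and 181 to 246 CPM in these groups, and the 5 epithelial markers to 65.4 to 68.2, 134 to 159 and 0.0484 to 0.491 CPM. Most epithelial reads were of KRT8 and KRT18, while EPCAM held 0 to 3 counts and KRT19 1 to 5 counts in the hairpin libraries. The 5 endothelial markers summed to at most 0.317 CPM in any library. The 6 synovial sarcoma markers summed to 851 to 859, 877 to 913 and 945 to 987 CPM. That list includes SSX1 and SS18, the partner genes of the targeted fusion, whose fall is given above and enters these sums. The part of all these markers in the Hedgehog results was not tested.

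Reads of genes on the opposite strand may enter some members, because no source used here gives the strand setting of the counting. HHIP shares 277 bases (2.79% of its exons) with HHIP-AS1, which was at 20.4 to 23.6 CPM with shSS18-SSX1-1, 20.2 to 21.9 CPM with shSS18-SSX1-2 and 14.1 to 16.7 CPM with shRenilla. BOC shares 530 bases (11.6% of its exons) with CFAP44, at 8.48 to 10.6, 7.68 to 9.49 and 6.58 to 9.96 CPM in these groups. CDON shares 1827 bases (22.1% of its exons) with VSIG10L2, not analysed here. In each case reads of the pair cannot be told apart without strand.

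The hairpins were then compared with each other. Of the 9 members, 0 passed in edgeR (0.147% of all genes did). The hairpin groups did not overlap for 3 members, PTCH1, HHIP and GAS1, and for 18.2% of all genes tested. GAS1 was higher with shSS18-SSX1-2 than with shSS18-SSX1-1 in every library, with a log2 difference of 0.63 (SE 0.153, unadjusted p = 0.00112, edgeR adjusted p = 0.129). The difference passed in DESeq2 (adjusted p = 0.0113), in edgeR without the filter on low counts (0.0419) and in edgeR without shRenilla replicate 1 (0.00275). PTCH1 was lower with the second hairpin (-0.27, 95% interval -0.41 to -0.12, edgeR adjusted p = 0.203), as was HHIP (-0.23, interval -0.41 to -0.05, adjusted p = 0.506), and neither passed in DESeq2. CDON differed by 0.01 (95% interval -0.25 to 0.26) and BOC by -0.08 (-0.51 to 0.35). SSX1 was itself lower with the first hairpin, at 18.7 to 20.9 CPM, than with the second, at 27.8 to 29.2 CPM, and its part in these differences was not tested.

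The 6 hr and the 96 hr effects were set against each other in a fit of all 15 libraries. The dBRD9-A effect minus the hairpin effect passed for 5 of 9 members, 1 higher and 4 lower (36.6% of all genes, 17.5% higher and 19% lower). PTCH1 had a log2 fold change of -0.06 with dBRD9-A and 0.93 with the hairpins, and the difference was -1.02 (SE 0.079, edgeR adjusted p = 1.68e-08). HHIP, CDON and BOC also differed downwards and GAS1 upwards. BOC held 9 counts with dBRD9-A and 8 with DMSO, and entered this test only through the hairpin groups, where it is high. At a mean of at least 1 CPM, which leaves BOC out, 4 members passed. The effects of GLI1 were close, with a difference of 0.00 (95% interval -0.19 to 0.20, edgeR adjusted p = 0.991). The agent, the time and the delivery all differ between these experiments and cannot be told apart.

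The controls of the experiments also differed in these genes. In DMSO against shRenilla, 3 members were higher and 1 lower in edgeR (54.5% of all genes called, 26.6% higher and 27.9% lower). HHIP was at 127, 123 and 129 CPM with DMSO and at 55.4, 44.6 and 46.9 CPM with shRenilla, a log2 fold change of 1.37 (SE 0.0726, edgeR adjusted p = 1.91e-11), so the HHIP level of the hairpin libraries lay between these controls. CDON (0.69, edgeR adjusted p = 7.01e-05) and PTCH1 (0.26, 0.00118) were higher and GLI1 (-0.27, 0.00513) lower with DMSO. Vehicle, virus and time in culture cannot be told apart here.

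The rest of the pathway was read from 51 other genes grouped by role, of which 43 were tested in each of the main comparisons. With dBRD9-A, 6 were higher and 14 lower, against 17.7% higher and 18.2% lower over all genes tested, and 2 of the higher ones, both ligands, were past 1.5-fold. SHH was at 3.20, 2.96 and 3.13 CPM with dBRD9-A and at 1.75, 1.71 and 2.40 CPM with DMSO, without overlap (log2 fold change 0.68, SE 0.162, edgeR adjusted p = 0.00144). IHH, named after its values were seen because it lies under 1 CPM, had 11, 16 and 12 counts with dBRD9-A and 1 count in each DMSO library, a ratio of 12.0 (exact 95% interval 3.82 to 60.9, counting error only). It passed the filter on low counts only through the dBRD9-A group, where it is high. DHH never exceeded 3 counts.

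The called changes in the other roles were all under 1.5-fold. ARRB2, a beta-arrestin linked to Smoothened traffic, had a log2 fold change of -0.43 (SE 0.0772) and PRKACB, a catalytic subunit of the protein kinase that primes GLI proteins for processing, one of -0.36 (SE 0.0485). Of 13 GLI kinases and ubiquitin ligases 5 were lower and 1 higher, and of 11 transduction and ciliary genes 2 were lower and 2 higher, shares near the 35.9% called over all genes. Of 9 tested target genes 3 were lower (CCND1, CCND2 and JAG2) and 1, FOXF2, higher.

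With the hairpins, 7 of the 43 were higher and 15 lower, of which 4 and 5 were past 1.5-fold, against 22.5% higher, 22.1% lower and 18.4% past 1.5-fold over all genes tested. Among ligands and the genes for their release, SHH was at 2.31, 3.13 and 1.19 CPM with shSS18-SSX1-1, at 2.91, 2.09 and 3.49 CPM with shSS18-SSX1-2, and at 7.40, 7.04 and 9.97 CPM with shRenilla. Every hairpin library was below every shRenilla library (log2 fold change -1.74, SE 0.211, edgeR adjusted p = 1.42e-05). With DMSO, the other control, SHH was at 1.75, 1.71 and 2.40 CPM, within the range of the hairpin libraries. DISP2, a homologue of the ligand exporter Dispatched, rose by 2.31 on the log2 scale (SE 0.241) but only to 1.36 to 1.85 CPM, and passed the filter on low counts only through the hairpin groups. SCUBE3, from a family of secreted proteins that help ligand leave the cell, rose by 1.13 (SE 0.0857).

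Of the 9 tested genes listed as targets, 7 were lower and 1, FST, was higher with the hairpins, with a median log2 fold change of -0.58, against 22.1% lower, 22.5% higher and a median of -0.01 over all genes tested. CCND1, which encodes cyclin D1, fell by 1.06 on the log2 scale (SE 0.0913) and FOXF2, a forkhead factor of mesenchyme, fell by 0.96 (SE 0.0946). JAG2, a Notch ligand, fell by 0.75 (SE 0.169), though its highest hairpin library, at 35.4 CPM, lay above its lowest shRenilla library, at 32.0 CPM. These targets answer to many other pathways as well. In the intracellular machinery 3 of 11 transduction and ciliary genes were lower and none was past 1.5-fold. SUFU, the main inhibitor of GLI proteins, was at -0.06 (SE 0.0732, edgeR adjusted p = 0.561). Of 13 GLI kinases and ubiquitin ligases 3 were higher and 1 lower, none past 1.5-fold. PRKACB, lower with dBRD9-A, was at 72.6 to 80.4 CPM with shSS18-SSX1-1 and 67.6 to 78.8 CPM with shSS18-SSX1-2. With shRenilla it was at 49.3 to 66.5 CPM.

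**Figure D4:**
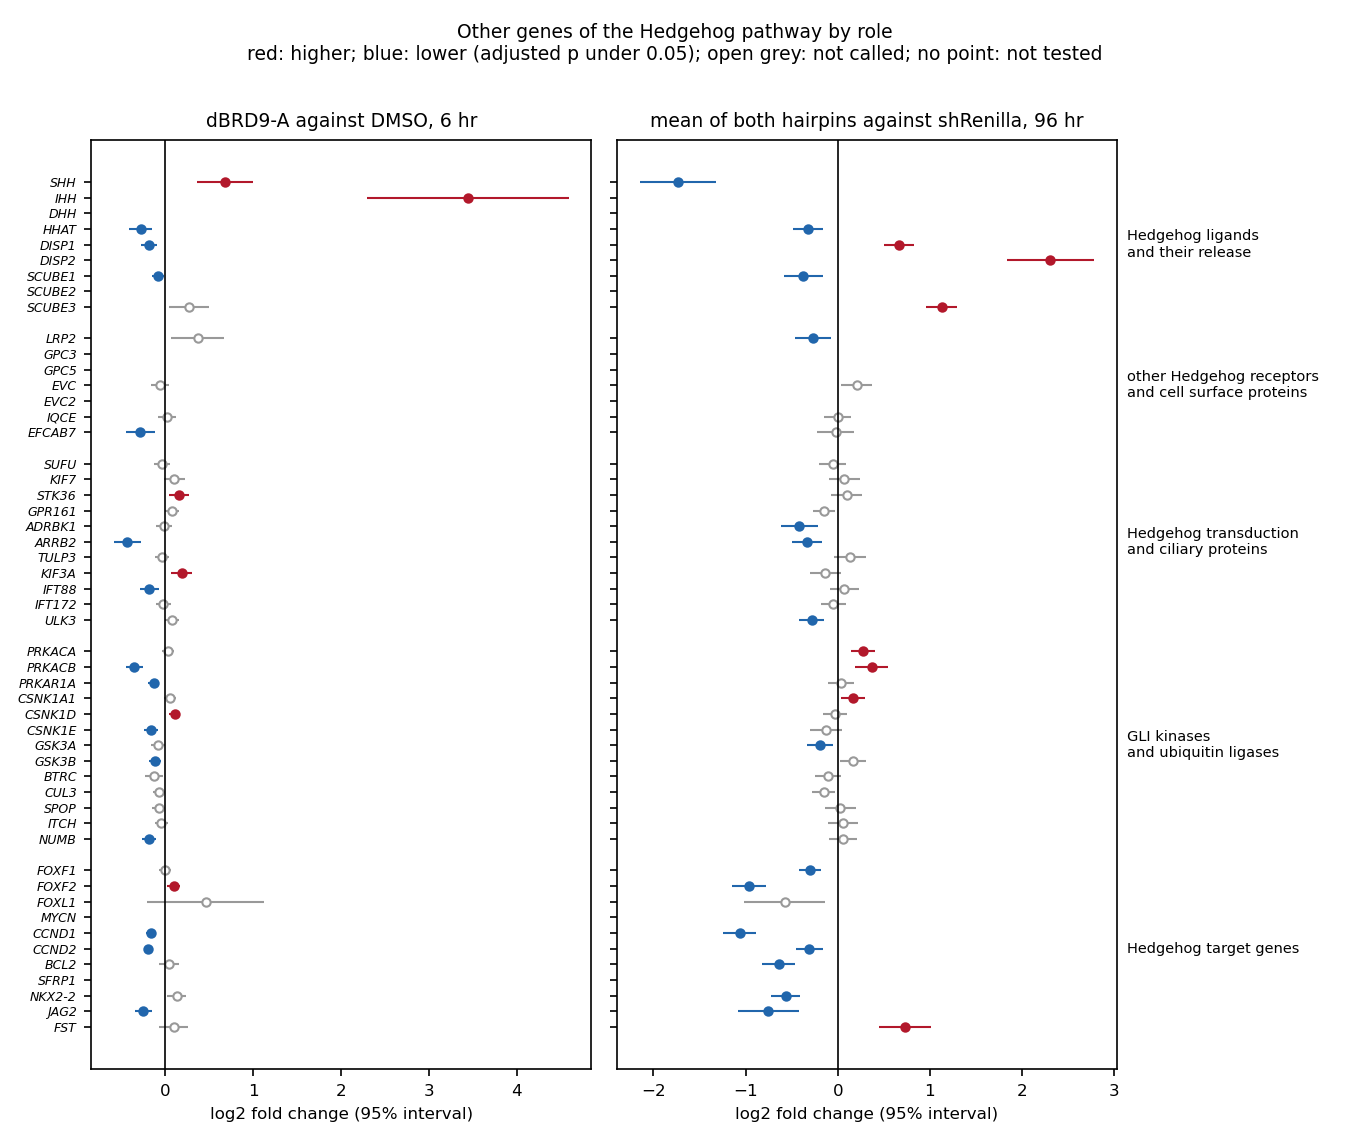
Log2 fold change with its 95% interval for the 51 other Hedgehog genes by role, for dBRD9-A against DMSO (left) and for the mean of both hairpins against shRenilla (right); red and blue points have an edgeR adjusted p under 0.05, grey points do not, and genes with no point were not tested. SHH lies at 0.68 with dBRD9-A and at -1.74 with the hairpins.

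Across the 15 libraries, the 5 genes whose log2 CPM followed GLI1 most closely among 11065 genes of at least 5 CPM were PRPF40B (Pearson r = 0.962), HDAC4, PDE4A, C15orf38-AP3S2 and CNTFR (0.924). For PTCH1 they were LOC100507346 (r = 0.987), PPP1R14A, BNC2, EML4 and THBS3 (0.976). The libraries share groups and experiments, and the correlations are a description. LOC100507346 is a noncoding gene that lies inside PTCH1 in the RefSeq table of GRCh38.p14. It was at 31.9 to 34.1 CPM with shSS18-SSX1-1, at 27.1 to 29.5 CPM with shSS18-SSX1-2 and at 14.7 to 17.6 CPM with shRenilla, and its reads and those of PTCH1 may not be separable.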

How the data were processed

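RNA-seq was run on 15 libraries. The submitters' processing notes name STAR, featureCounts and hg19 (GRCh37), and the authors deposited raw counts per RefSeq transcript (48104 rows a library), with replicates kept apart. The sources used here do not give tool versions or the strand option. In 1 library's file, 4535 gene symbols were broken by a column break and were repaired by rejoining their pieces. Through transcript identifiers, 78 of 80 symbols turned into dates were restored. The methods name spike-in controls, but 0 rows hold them, so a shift shared by all genes cannot be seen.

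The test was edgeR 4.0.16 under R 4.3.3 (robust quasi-likelihood, TMM, a count minimum of 10, Benjamini-Hochberg adjustment), and called at an adjusted p of 0.05. The dBRD9-A and hairpin experiments were fitted apart, and differences between them over 15 libraries. DESeq2 1.42.0, limma 3.58.1 voom, other scalings and filters, summed rows, a replicate block, a joint fit and leaving out each library were alternatives. Members and gene lists were chosen with earlier results of these data known. Besides the members, the text names up to 6 other pathway genes per comparison (adjusted p under 0.05, over 1.5-fold, at least 1 CPM, by size), SSX1, SS18 and the 5 genes most like GLI1 and PTCH1. A further gene of the lists is not reported here. Other genes were named after their values were seen. Gene lengths come from GENCODE v44 on GRCh37. Intervals of count ratios are exact at 95% and cover counting error only.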

Additional observations from a re-analysis of the deposited data

Results flagged for a closer look

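The dBRD9-A effect and the hairpin effect differed, by the test of the difference itself in edgeR over 15 libraries, for 5 members. PTCH1 had a difference of -1.02 on the log2 scale (adjusted p = 1.68e-08), HHIP of -0.83 (1.75e-06), CDON of -1.54 (3.66e-07) and BOC of -2.92 (0.0048), each with a rise in the hairpin libraries. With dBRD9-A, HHIP fell by 0.11, PTCH1 and CDON were not called and BOC was not tested. GAS1 had a difference of 0.80 (0.00117), with a fall in the hairpin libraries and no call with dBRD9-A. BOC rests on 9 counts with dBRD9-A and 8 with DMSO, and entered the test only through the hairpin groups.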

How the results depend on the processing

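Under 11 alternatives for each main comparison and with each library left out, the 5 members called for the mean of both hairpins kept their calls and directions. Leaving out 1 library gave log2 fold changes of 0.93 to 1.00 for PTCH1, 0.65 to 0.82 for HHIP, 2.69 to 3.40 for BOC, 1.21 to 1.52 for CDON and -1.12 to -0.81 for GAS1. The dBRD9-A calls were less stable. A 1.5-fold minimum left 0 members and 2 other pathway genes, the fit of all 15 libraries left 0 members and 4 other genes, and leaving out 1 library gave 2 to 5 members. The 1.5-fold minimum also left 9 other pathway genes with the hairpins and 2 members in DMSO against shRenilla. Between the hairpins 1 member (GAS1) was called without the filter and in DESeq2, and leaving out 1 library gave 0 to 1. Calls over all genes there were 21 as reported, 162 in DESeq2, 123 without the filter, 32 with DESeq2 size factors or total counts in edgeR, 33 at a mean of at least 1 CPM and 12 with rows summed, and 5 to 112 with 1 library left out. Same-numbered replicates did not deviate together (r between -0.30 and 0.25), so the numbers were not used to pair the libraries. Some libraries with different numbers did, up to r = 0.37 for shSS18-SSX1-1 replicate 3 with shSS18-SSX1-2 replicate 2. What such libraries share was not tested. A replicate block called 3 members with dBRD9-A and 5 with the hairpins, as without it, and 13 genes between the hairpins. Over all genes, the 1.5-fold minimum left 386 with dBRD9-A, 2622 for both hairpins, 2859 and 2263 for the first and second, 2522 for the difference of effects and 3321 for DMSO against shRenilla, and the fit of 15 libraries left 1500 with dBRD9-A. Values near 0 that changed sign were all uncalled. GLI1 in dBRD9-A effect minus hairpin effect was -0.004 with DESeq2 size factors, at a mean of at least 1 CPM and in DESeq2, and GLI2 in DMSO against shRenilla was 0.014 in limma voom. Leaving out 1 library, the ranges were -0.063 to 0.054 for GLI1 and -0.184 to 0.123 for GLI2 in these, -0.11 to 0.039 for SMO with both hairpins, -0.049 to 0.102 for SMO with shSS18-SSX1-1, and, between the hairpins, -0.059 to 0.088 for GLI1, -0.147 to 0.014 for GLI2, -0.053 to 0.17 for GLI3, -0.217 to 0.063 for BOC and -0.04 to 0.065 for CDON. Depth limits BOC, IHH and DHH, which hold few counts.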
